A study of Homo sapiens with 4 samples.

Results

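The keratin family was followed through 10 genes after depletion of the splicing factor RBM25 in HCT116, a long-established line of human colon cancer cells: the type II keratins KRT7, KRT8, KRT80 and KRT81, the type I keratins KRT18, KRT19, KRT20 and KRT23, and the keratin-associated proteins KRTAP2-3 and KRTAP3-1. They are 10 of 58735 genes in the deposited tables, and each was found by its gene name. They were picked by name with the results of this comparison already known, so the differences between the groups given below are a description and not a test of these genes. RNA from cells carrying an shRNA against RBM25 (RBM25_sh, 2 libraries) was compared with RNA from cells carrying a control shRNA (Control_sh, 2 libraries). Both groups were the same line in McCoy's 5A medium with serum, and the labels name neither the shRNA sequence nor the time after knockdown. Nothing in the labels says that the 2 libraries of a group came from separate cultures, so spreads and p-values cover only these libraries and may be technical.

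Keratins are the intermediate filament proteins of epithelial cells. A filament is built from pairs of a type I and a type II chain, and simple epithelia such as that of the gut are built mainly on KRT8 with KRT18, to which KRT19 and, in differentiated cells, KRT20 are added. The type II genes lie in a cluster on chromosome 12 and nearly all type I genes in a cluster on chromosome 17; KRT18 is the exception, next to KRT8 on chromosome 12. Hair-type keratins such as KRT81 and the cysteine-rich keratin-associated proteins, which cross-link them, are known from the hair shaft and are not part of the usual set of the gut.

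Library totals were 15528274 and 16335555 counts in RBM25_sh and 15528869 and 16982663 counts in Control_sh. RBM25 itself had 44.0 and 35.7 CPM (counts scaled to a common library size, with TMM factors) in RBM25_sh and 155.3 and 114.9 CPM in Control_sh, 3.39-fold lower in the knockdown (edgeR adjusted p = 0.0195). Of 6 colon epithelial markers, EPCAM (286 and 246 CPM in RBM25_sh, 287 and 269 CPM in Control_sh), CDH1 and CDX2 were present, while VIL1 and LGALS4 had at most 5 counts in any library and CDH17 at most 14. Of 10 markers of non-epithelial cells, COL1A1 and VWF were the ones counted above 9 in any library, and the summed level of all 10 was 38.1 and 49.1 CPM in RBM25_sh and 40.9 and 63.7 CPM in Control_sh. CD3E and COL1A2 were at 0 in all 4 libraries. In such bulk RNA, fewer cells that express a gene and less of its RNA per cell cannot be told apart.

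The start regions of 3 keratin-associated genes are shown first, because KRTAP2-3 had the largest difference of the 10 genes, KRTAP2-4 is its near copy 5001 bases away, and KRTAP3-1, 39915 bases from KRTAP2-3 in the same cluster, stayed at a few counts. Each runs 5′ to 3′ on the minus strand from 150 bases before to 20 bases after the RefSeq start (GRCh38.p14), with the letters TATAAA, the core of a TATA box, in capitals. The stretches are chr17:41060095-41060264 for KRTAP2-3, chr17:41065860-41066029 for KRTAP2-4 and chr17:41009109-41009278 for KRTAP3-1.
KRTAP2-3: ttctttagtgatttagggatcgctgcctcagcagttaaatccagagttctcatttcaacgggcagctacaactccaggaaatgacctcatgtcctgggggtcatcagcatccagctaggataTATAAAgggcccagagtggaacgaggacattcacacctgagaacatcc
KRTAP2-4: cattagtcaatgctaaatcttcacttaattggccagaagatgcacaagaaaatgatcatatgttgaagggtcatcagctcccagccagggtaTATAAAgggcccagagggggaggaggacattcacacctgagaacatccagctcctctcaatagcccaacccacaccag
KRTAP3-1: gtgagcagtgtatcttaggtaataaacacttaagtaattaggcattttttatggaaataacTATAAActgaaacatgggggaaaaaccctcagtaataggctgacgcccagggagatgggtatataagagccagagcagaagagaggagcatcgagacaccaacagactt

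Counted from the RefSeq start, the TATAAA run begins at position -28 in KRTAP2-3, -58 in KRTAP2-4 and -89 in KRTAP3-1. The KRTAP3-1 stretch also holds the TATA-like letters tatataag nearer to its start, which the search for TATAAA left unmarked. Which of these runs serves as a TATA box was not tested. The RefSeq start of KRTAP3-1 is not the gene end given in the deposited table, which reaches 41019324. Nor is that of KRT8, which lies between 52926450 and 52926619 on chromosome 12, while the listed gene end is 52949954. Which start these cells used was not tested for either gene, so their windows may not be the promoters in use. The letters TATAAA, on either strand, occur in 11.5% of 35116 RefSeq windows of 300 bases. Between the KRTAP2-3 and KRTAP2-4 windows the longest shared run was 38 bases, and 58 of the 100 bases before that run were identical without gaps. A RefSeq window was found for 4 of the 10 genes (KRT8, KRT20, KRTAP2-3 and KRTAP3-1). In these 4 windows none of the letters TGANTCA (the core of an AP-1 site), GAANNTTC (the core of a heat shock element) or GGGCGG (a GC box) was found on either strand, while TGANTCA is found in 7.71% of all windows, GAANNTTC in 6.77% and GGGCGG in 45.0%. The KRT20 window holds TTTATG, core letters of CDX sites, on the reverse strand at position -29, as do 10.6% of all windows on either strand, and the KRTAP3-1 window holds it as well.

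KRTAP2-3, a hair keratin-associated protein gene (ENSG00000212724, GRCh38 chromosome 17, 41059240 to 41060114, minus strand, 1 exon), was far higher in the knockdown. It had 290 and 283 counts in RBM25_sh and 35 and 31 counts in Control_sh, which is 19.4 and 18.0 CPM against 2.21 and 1.73 CPM. The 2 libraries of each group lay close together and the groups were far apart. Its mean was 18.7 ± 0.989 CPM in RBM25_sh and 1.97 ± 0.342 CPM in Control_sh (SD, n = 2 each), 9.49-fold higher, or 3.25 ± 0.34 (SE) as the log2 fold change of edgeR. It ranked 27th from the top among the 16091 genes tested. Without any 1 library the log2 fold change stayed between 3.07 and 3.44.

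KRTAP2-4, the neighbouring copy, is the gene whose reads could be mixed with it. Of the 826 stretches of 50 bases in the KRTAP2-3 transcript, 39.5% also occur, on either strand, in a KRTAP2-4 transcript. KRTAP2-4 had 11 and 27 counts in RBM25_sh and 2 in each Control_sh library, with a log2 fold change of 3.29 ± 0.84 that did not pass the threshold (edgeR adjusted p = 0.0652). Summed over both genes there were 301 and 310 counts in RBM25_sh and 37 and 33 in Control_sh, a log2 ratio of mean CPM of 3.26. How reads that match both were assigned is not given in the sources used here. KRTAP3-1, of another family of hair keratin-associated proteins, had 6 and 3 counts in RBM25_sh and 4 and 10 in Control_sh. Its groups overlapped, and of the 10 genes it was the 1 that did not pass the filter on low counts.

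**Figure D1:**
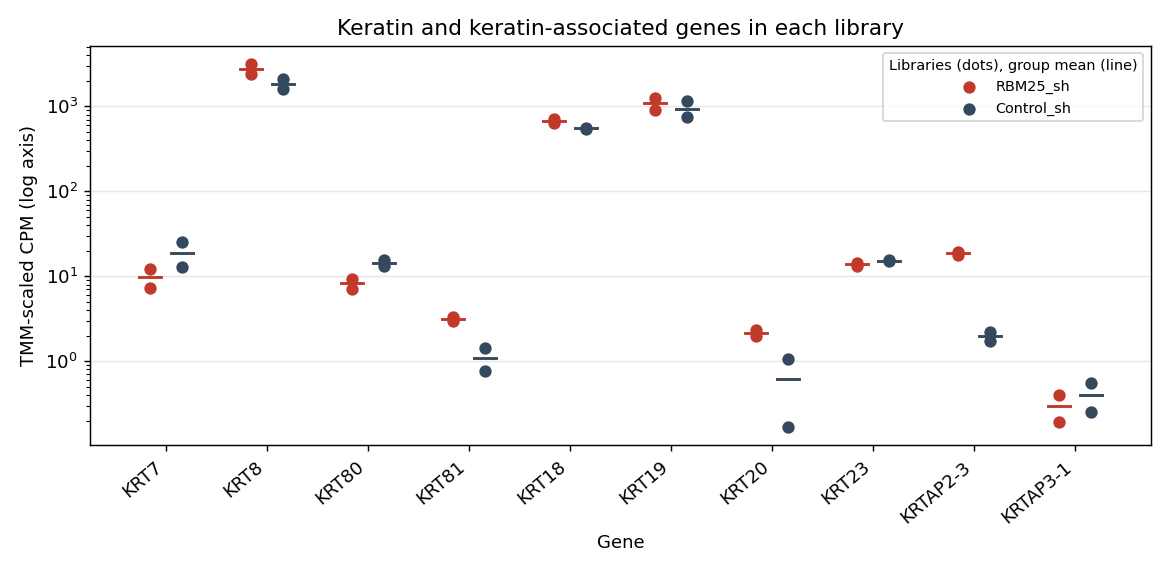
TMM-scaled CPM (log axis) of the 10 genes, with a dot for each library and a line for the mean of the 2 libraries of each group. KRT8, KRT18 and KRT19 stand far above the other 7 genes in every library, KRTAP2-3 is the gene with the widest gap between RBM25_sh (18.0 and 19.4 CPM) and Control_sh (1.73 and 2.21 CPM), and the groups of KRT19 and KRTAP3-1 overlap.

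The 9 genes tested divided into 6 with a log2 fold change above 0 and 3 below. Of them 1 was past an edgeR adjusted p of 0.05, KRTAP2-3, where 3.05% of the 16091 genes tested were past it (0.653% higher and 2.4% lower in RBM25_sh). In CPM the groups did not overlap for 8 of the 9 genes, 5 higher and 3 lower in RBM25_sh, where 51.8% of all genes tested did not overlap (23.9% higher and 27.9% lower). Because the genes were chosen with this comparison known, nothing is read from either count. The median log2 fold change was 0.28 over the 9 genes and -0.04 over all genes tested.

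Among the type II genes, KRT8, the main partner of KRT18 in simple epithelia (ENSG00000170421, chromosome 12, 52897187 to 52949954, minus strand), was the most counted. It had 2409 and 3153 CPM in RBM25_sh and 1622 and 2091 CPM in Control_sh. Both knockdown libraries were above both controls, but the nearest libraries of the groups were closer to each other than the 2 libraries within either group. The means were 2781 ± 526 CPM in RBM25_sh and 1856 ± 332 CPM in Control_sh (SD, n = 2 each), with a log2 fold change of 0.58 ± 0.27. The value was 0.41 to 0.78 without 1 library.

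KRT7, a type II keratin of ducts and glands that is used to tell such tumours from colonic ones, and KRT80, a type II keratin of many epithelia, were the genes with the lowest log2 fold changes. KRT7 had 7.37 and 12.2 CPM in RBM25_sh and 12.7 and 25.1 CPM in Control_sh. The higher knockdown library and the lower control library nearly met. Its log2 fold change was -0.95 ± 0.40, and it was -1.35 without Control_sh replicate 1, -0.38 without Control_sh replicate 2, -0.61 without RBM25_sh replicate 1 and -1.32 without RBM25_sh replicate 2. The transcript is GC-rich at 62.9%, and within both groups replicate 2 was the higher library, by 0.71 (log2) in RBM25_sh and 0.97 in Control_sh. Over 10378 genes that difference between replicates went with transcript GC content (Spearman's rho 0.84 in RBM25_sh and 0.82 in Control_sh), a description across genes of the same libraries. Its part in the KRT7 values was not tested beyond the GC correction below. KRT7 overlaps KRT7-AS on the opposite strand, which had 0 counts in both RBM25_sh libraries and 5 and 7 in Control_sh, too few to pass the filter. It also overlaps KRT86 on the same strand over 2887 bases (6 and 12 counts in RBM25_sh, 17 and 19 in Control_sh). The pseudogene KRT87P overlaps it on the opposite strand over 1721 bases (1 and 3 counts in RBM25_sh, 5 and 9 in Control_sh). The part of these genes in the KRT7 counts was not tested.

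KRT80 had 7.10 and 9.37 CPM in RBM25_sh and 13.2 and 15.4 CPM in Control_sh. The groups stood apart by more than the distance within either, with a log2 fold change of -0.79 ± 0.31. A lincRNA gene on the opposite strand, LINC00592, overlaps it over 23005 bases and had 0 counts in both RBM25_sh libraries and 4 and 12 in Control_sh.

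KRT81, a type II keratin of the hair cortex (chromosome 12, 52285913 to 52291534, minus strand), was low and went the other way. It had 44 and 52 counts in RBM25_sh and 12 and 26 in Control_sh, or 2.95 and 3.31 CPM against 0.759 and 1.45 CPM. Its log2 fold change was 1.49 ± 0.49, and it was 1.11 without Control_sh replicate 1 and 2.03 without Control_sh replicate 2. KRT81 lies wholly within the span of KRT86, a hair keratin on the opposite strand. Of the 50-base stretches of the KRT81 transcript, 38.4% also occur in KRT86, with matches on either strand counted. KRT86 had 6 and 12 counts in RBM25_sh and 17 and 19 in Control_sh, so this neighbour was the lower of the pair in the knockdown where KRT81 was the higher. Summed over both there were 50 and 64 counts in RBM25_sh and 29 and 45 in Control_sh, a log2 ratio of mean CPM of 0.77.

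Among the type I genes, KRT18 and KRT19 differed little without the GC correction described below. With it both had a log2 fold change of 0.45 (SE 0.18 and 0.16), short of the threshold (edgeR adjusted p = 0.0894 and 0.0598). KRT18, the partner of KRT8, had 640.6 and 706.2 CPM in RBM25_sh and 562.4 and 549.4 CPM in Control_sh, with a log2 fold change of 0.28 ± 0.25. Both knockdown libraries were above both controls by a small step. KRT19, a short type I keratin without the usual tail domain, had 919.2 and 1264 CPM in RBM25_sh and 746.0 and 1144 CPM in Control_sh. Replicate 2 was the higher library in both groups and the groups overlapped, with a log2 fold change of 0.21 ± 0.30.

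KRT20, a type I keratin of differentiated intestinal epithelium, had 35 and 31 counts in RBM25_sh and 17 and 3 in Control_sh. The knockdown libraries lay close together at 2.35 and 1.98 CPM, while the controls lay apart at 1.08 and 0.167 CPM. The log2 fold change of 1.81 ± 0.73 depended on which control was used, since it was 3.64 without Control_sh replicate 1 and 1.0 without Control_sh replicate 2. KRT23, a type I keratin described in colon cancer cells, was nearly level and slightly lower in both knockdown libraries, with 14.5 and 13.1 CPM in RBM25_sh and 15.4 and 15.2 CPM in Control_sh (log2 fold change -0.15 ± 0.29).

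**Figure D2:**
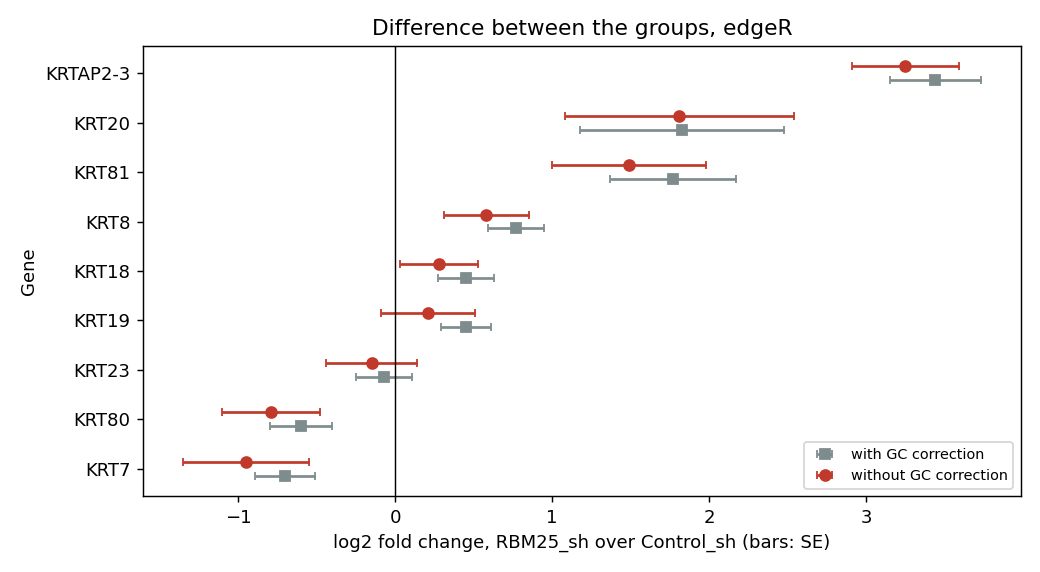
Log2 fold change of RBM25_sh over Control_sh from edgeR for the 9 genes tested, with SE bars, without and with a correction for the GC content of transcripts. The order of the 9 genes runs from KRTAP2-3 at 3.25 to KRT7 at -0.95, and with the correction each of the 9 values lies further to the right, least for KRT20 (1.83).

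The libraries differ by GC content, so a correction that removes each library's trend of log2 CPM on transcript GC was fitted as well. Without it, the log2 fold change between the groups also went with transcript GC over 10378 genes (Spearman's rho -0.31). After it 5 of the 9 genes were past the threshold, where 28.9% of all genes tested were past it (2327 higher and 2324 lower, against 105 higher and 386 lower without the correction): KRTAP2-3 (3.44 ± 0.29), KRT81 (1.77 ± 0.40) and KRT8 (0.77 ± 0.18) were higher and KRT7 (-0.70 ± 0.19) and KRT80 (-0.60 ± 0.20) lower in RBM25_sh. As the rule for the genes used the same contrast, nothing is read from this count either. The median log2 fold change of all genes was 0.01 after the correction and -0.15 with library totals alone, so the values of the 9 genes are relative to the scaling used. With a replicate block 6 of the 9 were past the threshold, where 35.6% of all genes tested were past it.

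Per kilobase of gene, KRT19, KRT8 and KRT18 made up nearly all keratin RNA of these cells. In deposited FPKM (fragments per kilobase of listed gene length, with 1 scaling factor per library that is not its total count) the order of mean levels in RBM25_sh was KRT19 at 459, KRT8 at 397, KRT18 at 206, KRTAP2-3 at 21.1, KRT23 at 4.70, KRT7 at 2.34, KRT80 at 1.86, KRT81 at 1.6, KRT20 at 1.16 and KRTAP3-1 at 0.407. The libraries of KRT19 and KRT8 overlapped there, as did those of KRT7 with KRT80 and of KRT80 with KRT81. In Control_sh the order was KRT19 at 388, KRT8 at 259, KRT18 at 166, KRT23 at 5.08, KRT7 at 4.43, KRT80 at 3.15, KRTAP2-3 at 2.17, KRT81 at 0.550, KRTAP3-1 at 0.537 and KRT20 at 0.324. There KRT23 overlapped with KRT7, KRT7 with KRT80, KRT81 with KRTAP3-1 and KRTAP3-1 with KRT20. The place of KRTAP2-3 thus differed between the groups: it stood next after KRT18 in RBM25_sh and below KRT80 in Control_sh. Among all genes of the tables KRT8 ranked 68 and 53 by FPKM in the RBM25_sh libraries and 91 and 83 in the Control_sh libraries.

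The balance of type I against type II keratin RNA was nearly the same within each group and differed between the groups. Protein chains were not measured. Type I genes gave 62.8% and 62.2% of the summed FPKM of the 8 keratins in RBM25_sh and 67.4% and 67.9% in Control_sh. The means were 62.5% ± 0.395 in RBM25_sh and 67.6% ± 0.395 in Control_sh (SD, n = 2 each), a difference of -5.15 percentage points that is wider than the spread within either group. It comes from the same comparison that chose the genes and is given without a test. KRT8 alone made up 36.7% and 37.2% of the sum in RBM25_sh and 31.8% and 31.0% in Control_sh. The share of KRT19 was 41.3% and 43.9% in RBM25_sh and 43.0% and 50% in Control_sh, and that of KRT18 was 20.9% and 17.8% in RBM25_sh and 23.5% and 17.4% in Control_sh. Both of these overlapped between the groups and moved against each other between replicates, so the small spread of the type I share hides wider swings of its genes. The log2 fold change of KRT8 itself did not pass the threshold (edgeR adjusted p = 0.248).

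The level of KRT8 per length depends on which length is used, because its listed length is 6881 bases while its principal transcript in GENCODE has 2126. With counts per principal transcript length, a choice made after seeing the data, KRT8 was the leading keratin, at 51.0% and 51.8% of the sum in RBM25_sh and 45.4% and 45.0% in Control_sh. Type I genes then made up 48.6% and 47.8% in RBM25_sh and 53.9% and 54.1% in Control_sh. The order of KRT8 and KRT19 was turned by this choice, while the type I share was lower in RBM25_sh on both scales.

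**Figure D3:**
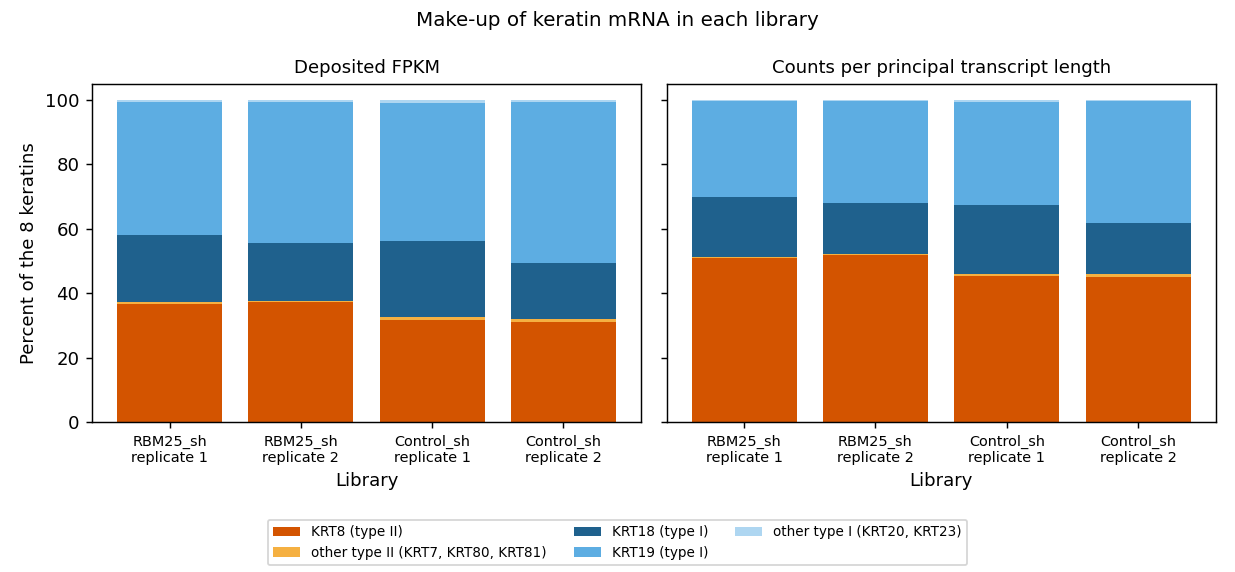
Percent of the summed level of the 8 keratins that each gene or group of genes gives in each library, from deposited FPKM (left) and from counts per principal transcript length (right). KRT8 (dark orange, at the bottom) is taller in both RBM25_sh libraries than in both Control_sh libraries in each panel.

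KRT8 and KRT18 have many pseudogene copies elsewhere in the genome. KRT8 and KRT18 overlap each other on opposite strands over 1084 bases of chromosome 12. Of the 50-base stretches of the principal transcript, 36.9% in KRT8 and 47.6% in KRT18 occur in other genes, with matches on either strand counted. The share was 1.79% in KRT19, and there was none in KRT20 or KRTAP3-1. The largest share of KRT8 was in KRT8P3 (19.0%). That of KRT18 was in KRT8 (21.5%), which is not a pseudogene copy, and how much of it lies in the overlap of the 2 genes was not tested. The 50 KRT8 pseudogenes held 100 and 142 counts in RBM25_sh and 136 and 280 in Control_sh, which is 0.278% and 0.287% of the KRT8 count in RBM25_sh and 0.530% and 0.747% in Control_sh. The 67 KRT18 pseudogenes held 30 and 42 counts in RBM25_sh and 30 and 48 in Control_sh. The reads listed for pseudogenes are few beside those of their parent genes, and their part in the differences of KRT8 and KRT18 was not tested.

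The rest of the family was mostly silent. Of 139 other protein-coding keratin and keratin-associated genes, 48 had a count in any library and 12 passed the filter. Of the 12, 10 had a log2 fold change above 0 (median 0.96), where 47.5% of all genes tested were above 0 (median -0.04). The libraries of the groups stood apart, higher in RBM25_sh, for 8 of the 12, where 23.9% of all genes did so. None passed edgeR's adjusted threshold, while 6 had an unadjusted p under 0.05, as had 21.4% of all genes tested. The 12 passed a filter that a gene can meet through its higher group alone, and these counts are a description. DESeq2, run on all 139 without the filter, also called none. On the 12, limma on log2(FPKM + 1) called none and limma on log2(FPKM + 0.1) called 2. KRT6A, a keratin of stressed and wounded epidermis, had 59 and 56 counts in RBM25_sh and 21 and 30 in Control_sh (1.32 ± 0.43, edgeR adjusted p = 0.122). KRT5, a keratin of basal epidermal cells, had 11 and 26 counts in RBM25_sh and 4 and 2 in Control_sh (2.69 ± 0.81, edgeR adjusted p = 0.101). KRT35, a type I hair keratin, had 11 counts in each RBM25_sh library and 0 and 1 in Control_sh (edgeR adjusted p = 0.0711). KRT36, another type I keratin of hair, had 11 and 12 counts in RBM25_sh and 2 in each Control_sh library (edgeR adjusted p = 0.121). The choice of these 4 to name was made with their values in view. KRT10 and KRT15, the best counted of the 12, overlapped between the groups, with log2 fold changes of -0.33 ± 0.45 and 0.04 ± 0.35.

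Hair keratins were then summed, a grouping chosen after seeing the values. The 11 type I hair keratins KRT31 to KRT40 together had 87 and 107 counts in RBM25_sh and 23 and 40 in Control_sh, of which KRT32 alone gave 31 and 30 in RBM25_sh and 15 and 30 in Control_sh. The 6 type II hair keratins KRT81 to KRT86 had 51 and 70 counts in RBM25_sh and 29 and 45 in Control_sh, nearly all from KRT81 and KRT86. Of 12 markers of keratinocytes and the hair shaft, KRT1, KRT85, LOR and IVL were at 0 in all libraries, and the summed level was 27.0 and 29.4 CPM in RBM25_sh and 16.3 and 47.4 CPM in Control_sh, most of it KRT10. Of 139 other family members, 13 with a count were at 0 in both Control_sh libraries and 6 at 0 in both RBM25_sh libraries, at depths of a few counts where presence and absence are not firm. Over the whole table, 23058 and 24261 genes had a count in the RBM25_sh libraries and 24520 and 26053 in the Control_sh libraries. The share of all genes at 0 in 1 group was not worked out, so nothing is read from the 13 and the 6.

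**Figure D4:**
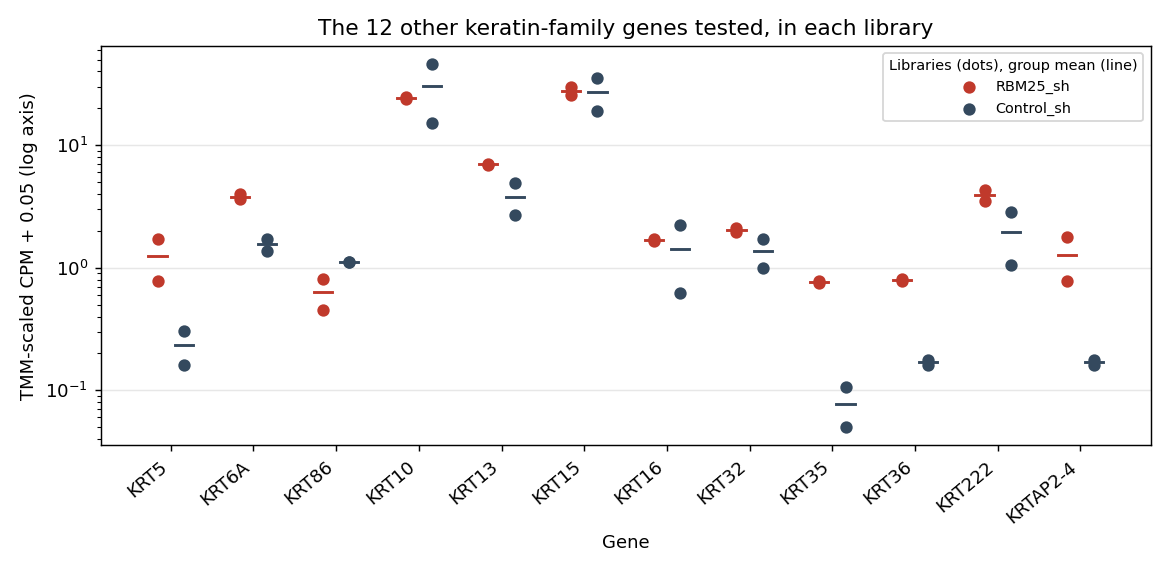
TMM-scaled CPM plus 0.05 (log axis) of the 12 other keratin-family genes that passed the filter, with a dot for each library and a line for each group mean. KRT5, KRT6A, KRT13, KRT32, KRT35, KRT36, KRT222 and KRTAP2-4 have both RBM25_sh libraries above both Control_sh libraries, KRT86 has them below, and KRT10, KRT15 and KRT16 overlap.

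Of 16 genes of desmosomes and of linkers that tie keratin filaments to the membrane, 14 were tested and none was called by edgeR. Of the 14, 4 had an unadjusted edgeR p under 0.05, limma on FPKM called 0, and the median log2 fold change was -0.08. DESeq2, run on all 16, called 2. Of 24 transcription factors with described roles at keratin genes or in epithelial and hair differentiation, 18 were tested and none was called by edgeR. Of the 18, 6 had an unadjusted edgeR p under 0.05, limma on FPKM called 0, and the median was -0.30. DESeq2, run on all 24, called 4. Over all genes tested, edgeR called 3.05%, and 21.4% had an unadjusted edgeR p under 0.05. DESeq2 was run on all 58735 genes without the filter on low counts and called 989, and the share called was not worked out. Nothing is read from the counts of these 2 lists. Of 18 other intermediate filament genes 11 were tested, 5 with a log2 fold change above 0 and 6 below (median -0.04). Of these, 2 were called by edgeR, both lower in RBM25_sh, where 2.4% of all genes tested were called lower. BFSP1, the lens filament protein filensin, had 2.21 and 2.04 CPM in RBM25_sh and 15.6 and 17.2 CPM in Control_sh (log2 fold change -2.94 ± 0.34, edgeR adjusted p = 0.00626). PRPH, the neuronal filament protein peripherin, had 0.804 and 1.21 CPM in RBM25_sh and 5.88 and 8.54 CPM in Control_sh (-2.83 ± 0.44, edgeR adjusted p = 0.0157).

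The genes nearest in pattern to the highest and the lowest member were looked up among 10079 other protein-coding genes with an average log2 CPM of at least 3, by the Euclidean distance of centred log2 CPM over the 4 libraries. Nearest to KRTAP2-3 were the chaperone gene HSPA8 at a distance of 0.627, ILDR2 at 1.03 and the tetraspanin gene TSPAN1 at 1.09. HSPA8 had 2918 and 2473 CPM in RBM25_sh and 547.6 and 367.6 CPM in Control_sh. Nearest to KRT7 were EHBP1L1 at 0.0489, the polyamine oxidase gene SMOX at 0.0789 and the gasdermin gene GSDMD at 0.0799, each also highest in Control_sh replicate 2. With 4 libraries many genes share a pattern, and the distances describe these libraries only.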

How the data were processed

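For each of the 4 libraries the authors deposited gene counts, as whole numbers, and FPKM. Cuffdiff 2.1.1, Cufflinks 2.1.1, TopHat2 2.0.9 and Bowtie2 2.0.6 are listed, with no roles, per the submitters' processing notes. Which tool counted, its strand setting, the read length and the build were not given in the sources used. All 58735 positions equal those of GENCODE release 29 (GRCh38), which gave transcript lengths and GC content, and 27 names held as dates were restored from it by ID.

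Counts were fitted over all genes with edgeR 4.0.16 in R 4.3.3 (filterByExpr defaults, TMM, quasi-likelihood F test of RBM25_sh against Control_sh, group only, 2 residual degrees of freedom), with two-sided p-values under Benjamini-Hochberg adjustment and a threshold of 0.05. A standard error is the log2 fold change divided by the root of F, and the common coefficient of biological variation came to 0.252. Alternatives used limma 3.58.1, DESeq2 1.42.0, other scalings and filters, a replicate block, a lowess GC correction (span 0.3, GC found for 99.95% of genes) and leaving out each library. In all 4 libraries the deposited FPKM equal counts per listed length times 1 factor per library, to within 1% for genes of at least 100 counts; its divisor was 95.1% and 99.8% of the total count in RBM25_sh and 105.8% and 110.0% in Control_sh. Keratin shares were computed from FPKM and, per principal transcript length, from counts; lists were summed as counts or CPM.

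The genes and lists were chosen with earlier results of these data known. Named are RBM25, the 10 genes, up to 5 called genes of each list and the 3 nearest genes in pattern; exceptions are stated. Start regions are from RefSeq (GRCh38.p14). Figures used matplotlib 3.10.9.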

Additional observations from a re-analysis of the deposited data

How the results depend on the processing

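KRTAP2-3 was past the threshold as reported and in all 14 alternatives, and the other 8 genes kept their sign in all of them except KRT19, at -0.06 without Control_sh replicate 1 and -0.0003 without RBM25_sh replicate 2 (0.55 without Control_sh replicate 2). The 1 of 9 genes called became 2 with no filter, 5 with the GC correction, 6 with the replicate block and 8 with both, and 1 to 3 without 1 library. Over all genes the 491 calls became 1438 with no filter, 989 with DESeq2, 215 and 268 with limma on log2(FPKM + 1) and log2(FPKM + 0.1), 4651 with the GC correction, 5722 with the replicate block and 6441 with both, and 204 to 2389 without 1 library. The cause of these shifts was not tested. The labels do not say that a replicate number marks a shared batch; same-numbered libraries deviated together (correlation 0.47).

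Of the other keratin-family genes, 0 calls became 4 with no filter, 2 with limma on log2(FPKM + 0.1), 6 with the GC correction, 7 with the replicate block and 6 with both, and 0 to 2 without 1 library. Of desmosome and linker genes, 0 became 2 with no filter, 2 with DESeq2, 7 with the GC correction, 9 with the replicate block and 9 with both, and 0 to 4 without 1 library. Of other intermediate filament genes, 2 became 4 with the GC correction, 4 with the replicate block and 5 with both, and 2 to 3 without 1 library. Of regulators, 0 became 1 with DESeq2 size factors, 3 with no filter, 4 with DESeq2, 7 with the GC correction, 10 with the replicate block and 10 with both, and 0 to 4 without 1 library. Over all genes tested the share called was 3.05% as reported, 28.9% with the GC correction and 35.6% with the replicate block, and nothing is read from the counts of these lists. The difference in type I share was -5.78 percentage points per principal transcript length, against -5.15. Under about 30 counts, as for KRT20 and KRT81 in Control_sh and for KRTAP3-1 in both groups, depth limits what can be shown.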
